A study of Nicotiana tabacum with 2 samples.

Results

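Runs of closely spaced accessible regions were examined in tobacco callus, the unorganised tissue that grows from explants in culture, by ATAC-seq, in which a transposase inserts sequencing adapters into open DNA. Regions called at 0.1 and at 0.5 mg/L auxin that overlapped by at least 1 bp on the 19 chromosomes of the Niben261 assembly were merged into 54066 union regions. A region was taken as clustered when it lay in a run of 3 or more union regions in which each gap, from the end of one region to the start of the next, was under 5000 bp. There were 1793 clustered regions in 577 runs, or 3.32% of all union regions (95% exact Clopper-Pearson interval 3.17 to 3.47%). Since positions chose the members, the number of members, the run lengths and the gaps are descriptions, and none was tested. Intervals here and below cover counting error over regions only.

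The study asked whether the concentration of naphthaleneacetic acid (NAA), a synthetic auxin, alters how open the chromatin of callus cells is. Cotyledon-derived explants of tobacco were cultured on medium with NAA at 0.1 mg/L or at 0.5 mg/L. Nuclei were taken from pooled explants, so a library averages over many explants. The regeneration medium of the study also held a cytokinin, but whether the medium of these explants did is not given in the sources used here. There was 1 library per concentration and no replicate. The labels give 2 weeks of culture for the 0.1 mg/L library and 3 weeks for the 0.5 mg/L library, so by the labels concentration and culture time cannot be told apart. The methods of the study state the same culture time for both. The labels name Nicotiana tabacum, while the study's plants and the sequence names belong to N. benthamiana, a related tobacco with a duplicated genome of hybrid origin.

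In plants, short stretches of open chromatin lie mostly just before gene starts and at more distant regulatory elements, where transcription factors displace nucleosomes. Several such stretches in a row can occur where genes lie close together, where a gene carries more than one element, or where one long open stretch is called in pieces. Gene features around the runs were not analysed here. A list from a peak caller can also hold neighbouring calls from sequence that is repeated in the genome.

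The runs were short. Of the 577 runs, 518 held 3 regions, 56 held 4 and 3 held 5, and no run was longer. The span from the first to the last base of a run had a median of 5402 bp (quartiles 2965 and 6720 bp) and ranged from 1001 to 13389 bp. The median span was 4929 bp for runs of 3, 7824 bp for runs of 4 and 9307 bp for the runs of 5. Only 66 runs (11.4%) were under 2000 bp and 18 were over 10000 bp. The regions filled a median of 18.6% of a run (quartiles 13.9 and 29.1%), so most of the typical run lay outside any called region. At the limit itself, the widest gap inside a run was 4988 bp and the narrowest gap that did not meet the limit was 5000 bp. Gaps under the limit also occurred outside these runs, in 5266 runs of 2. A limit 250 bp lower would have dropped 227 members, and a limit 250 bp higher would have added 302.

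Clustered regions were more numerous than even placement would give over the whole union set, but not in every way of counting. If the same number of regions lay uniformly at random along each chromosome, 1215 clustered regions (2.25%) in 392 runs would be expected from a closed formula, against the 1793 and 577 found, a ratio of 1.48 for regions and 1.47 for runs. With 1 rate for each 10 Mb window in place of 1 per chromosome, which allows for regional density, the ratio was 1.29. The ratio fell below 1, to 0.975, when regions less than 500 bp apart were first merged. Built from the 0.1 mg/L list alone, runs held 366 regions, 0.799 times the expected 458, whereas from the 0.5 mg/L list alone they held 464 regions, 1.85 times the expected 251. The expected values describe an even genome without repeats or unmappable stretches, and no test of the difference was made.

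**Figure D1:**
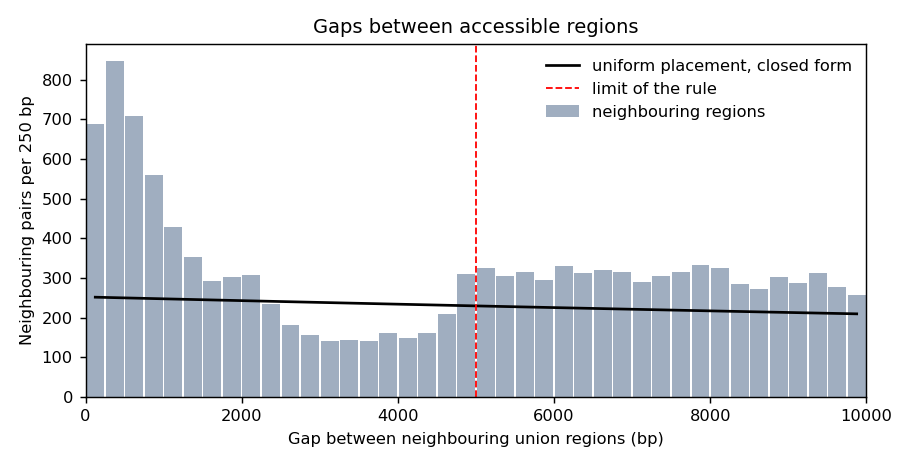
Number of neighbouring pairs of union regions (bars, per 250 bp) by the gap between them in bp, with the number that uniform placement would give (black line) and the 5000 bp limit (red dashed line). The bars stand above the line up to 2250 bp, under it from 2250 to 4750 bp, and above it again from 4750 bp on.

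Over all neighbouring regions, in runs of 3 or more or not, the ratio to uniform placement was highest at short gaps. Of the gaps under 250 bp given next, 136 lay inside runs of 3 or more. Among all neighbouring union regions, 689 gaps were under 250 bp, 2.74 times the number for uniform placement (95% Poisson interval 2.54 to 2.95). The ratio was highest at 250 to 500 bp, where 848 gaps were found (3.39, 3.17 to 3.63), and it was 2.55 (2.41 to 2.70) at 500 to 1000 bp and 1.41 (1.33 to 1.48) at 1000 to 2000 bp. Gaps in the middle of the range were scarcer than for uniform placement. Between 3000 and 4000 bp there were 588 gaps, a ratio of 0.623 (0.574 to 0.675), and between 4000 and 5000 bp there were 831 (0.897, 0.837 to 0.960). The number passed that for uniform placement again before the limit was reached, with 310 gaps at 4750 to 5000 bp against 229.9 for uniform placement. Just outside the limit, at 5000 to 6000 bp, there were 1241 gaps (1.37, 1.29 to 1.44).

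Inside the runs themselves the 1216 gaps ranged from 3 to 4988 bp, with a median of 1510 bp and quartiles of 542 and 3560 bp. Gaps under 500 bp made up 23.0% of them (280 gaps), against the 10.4% that uniform placement gives among gaps under the limit. Gaps under 1000 bp made up 39.1%, against 20.8%. The gaps inside runs thus went from nearly adjacent calls to loose spacing. How short and long gaps combined within single runs was not worked out.

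Measured between summits rather than edges, the number of neighbours stepped up at 5000 bp in both lists. Within the 0.1 mg/L list, 259 pairs of neighbouring summits (the points of highest pileup) lay 4000 to 5000 bp apart (95% Poisson interval 228 to 293) and 640 lay 5000 to 6000 bp apart (591 to 692). Within the 0.5 mg/L list the numbers were 232 (203 to 264) and 498 (455 to 544). The intervals of these distance classes did not overlap in either list. Beyond the step the numbers were nearly level, with 695 pairs at 0.1 mg/L and 478 at 0.5 mg/L in the class of 6000 to 7000 bp.

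The local background changed at that distance too. The local background is the number of fragments that the caller expects at a summit from its surroundings, recovered here from the deposited fold and p-value. In 0.1 mg/L regions with the nearest summit 4000 to 5000 bp away its median was 1.70 fragments, and with the nearest summit 5000 to 6000 bp away it was 1.24. In the 0.5 mg/L list the medians were 0.719 and 0.434 fragments. The widest background window that MACS2, the caller, uses by default spans 10000 bp and so reaches 5000 bp to each side of a summit, but whether the default was kept is not stated in the sources used here. The part of the background in the spacing of the regions was not tested.

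**Figure D2:**
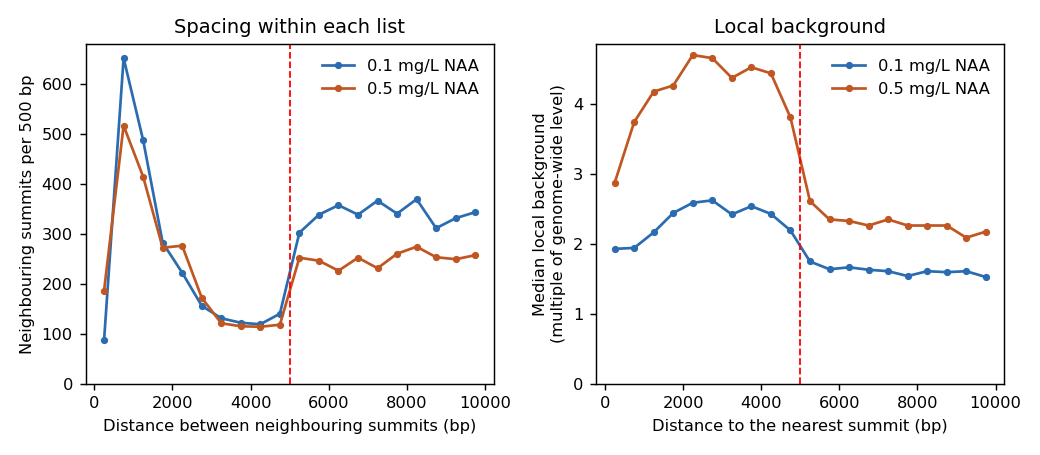
Left, number of neighbouring summits per 500 bp of distance within each list. Right, median local background of regions by the distance to their nearest summit in the same list, as a multiple of the genome-wide level of that library (0.747 fragments at 0.1 mg/L, 0.172 at 0.5 mg/L). At the 5000 bp line the number of pairs steps up and the background steps down in both lists.

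Regions seen at 0.5 mg/L alone held the largest share of the clustered regions, while those seen at 0.1 mg/L alone held the largest share elsewhere. Of the 1793 clustered regions, 708 were in the 0.5 mg/L list alone (39.5%, 95% interval 37.2 to 41.8%), against 28.4% (28.0 to 28.8%) of the 52273 regions outside runs and 28.7% of all union regions. A further 626 were in the 0.1 mg/L list alone (34.9%, 32.7 to 37.2%), against 42.7% (42.3 to 43.2%) outside runs and 42.5% of all. The remaining 459 were in both lists (25.6%, 23.6 to 27.7%), against 28.9% (28.5 to 29.3%) outside runs and 28.8% of all. The regions outside runs pool runs of 2, with 25.8% in both lists, and regions on their own, with 29.7%. The lower share in both lists was thus not particular to runs of 3 or more. The share seen at 0.5 mg/L alone went from 26.9% of regions on their own to 34.1% in runs of 2 and 39.96% in runs of 3, and was 36.6% (30.3 to 43.3%) in runs of 4.

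**Figure D3:**
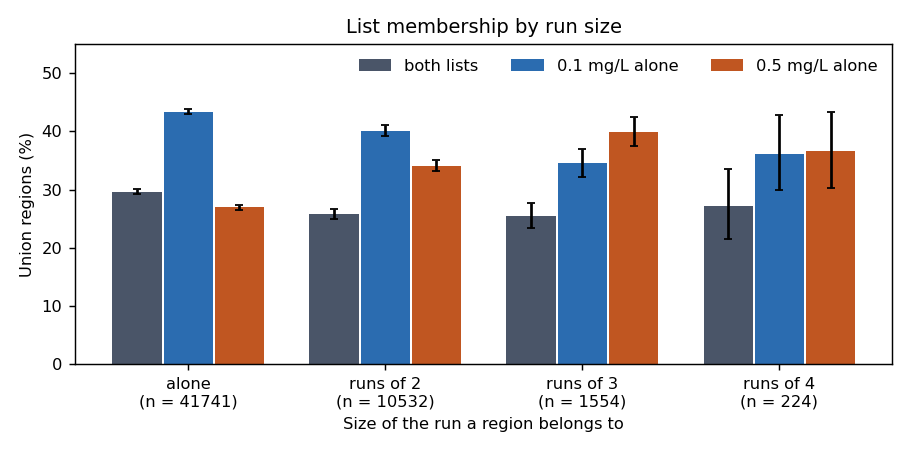
Percent of union regions found in both lists, in the 0.1 mg/L list alone or in the 0.5 mg/L list alone, by the size of the run they belong to (error bars, 95% Clopper-Pearson intervals). From regions on their own to runs of 3, the 0.5 mg/L alone bar goes from 26.9 to 39.96% and the 0.1 mg/L alone bar from 43.4 to 34.6%, and the runs of 5, with 15 regions, are not drawn.

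Narrow calls of the 0.5 mg/L list were more common in runs. The narrowest region of the 0.1 mg/L list was 207 bp wide and that of the 0.5 mg/L list 150 bp. Among the 1170 regions of the 0.5 mg/L list inside runs, 502 (42.9%, 40.0 to 45.8%) were narrower than 207 bp, against 37.5% (37.0 to 38.1%) of that list outside runs. When regions under 207 bp were left out, 25.4% of the clustered and 16.2% of the other regions were in the 0.5 mg/L list alone. The share was thus still higher in runs, an alternative added after seeing the data. But with 24.8% of the clustered regions in both lists, those of the 0.1 mg/L list alone then held the largest share in runs. The number of clustered regions then dropped to 899 in 292 runs, with a ratio to uniform placement of 1.17.

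Neighbours in a run often came one from each list without overlapping. Of the 1216 gaps inside runs, 411 (33.8%, 31.1 to 36.5%) lay between a region of the 0.1 mg/L list alone and one of the 0.5 mg/L list alone, against 24.9% of all neighbouring regions on the chromosomes. The share was 33.6% (32.5 to 34.8%) of all neighbours under 5000 bp apart, most of which were in runs of 2, and 27.6% would follow from the makeup of the clustered regions alone. Among the 136 gaps under 250 bp inside runs, 77 (56.6%, 47.9 to 65.1%) were of that kind, with a median gap of 84 bp, and so were 56.3% of all gaps under 250 bp on the chromosomes. Only 4 of these 136 gaps lay between regions that were both in both lists. Among gaps of 4000 to 5000 bp inside runs the share of the mixed kind was 31.0% (25.1 to 37.4%). Within a single list no gap on the chromosomes was under 208 bp at 0.1 mg/L or under 151 bp at 0.5 mg/L, so gaps under 151 bp could arise only between the lists.

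Most runs therefore existed only in the union of the lists. In 324 runs (56.2%) neither list had 3 regions of its own. There were 129 runs with at least 3 regions of the 0.1 mg/L list, 157 with at least 3 of the 0.5 mg/L list and 33 with at least 3 of each. Regions of the 0.1 mg/L list alone and of the 0.5 mg/L list alone occurred in the same run, though not always next to each other, in 357 runs (61.9%), and 250 runs (43.3%) had no region in both lists. Every region was in both lists in 19 runs, in the 0.1 mg/L list alone in 12 and in the 0.5 mg/L list alone in 28. The numbers of such runs that the makeup of the clustered regions alone would give were not worked out, so these counts are descriptions.

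Runs built from one list can be set against the other list, which had no part in choosing them. The 0.1 mg/L list alone gave 119 runs with 366 regions, and 190 of these regions (51.9%, 46.7 to 57.1%) overlapped a 0.5 mg/L region, against 40.3% (39.8 to 40.8%) of the 0.1 mg/L regions outside such runs. Because strong regions are shared more often, the other regions were also weighted to the strength of the clustered ones in 10 classes of −log10 q-value, which gave 42.5%. In 8 of the 10 classes the clustered regions had the higher share, with intervals apart in 2. The 0.5 mg/L list alone gave 151 runs with 464 regions, of which 216 (46.6%, 41.9 to 51.2%) overlapped a 0.1 mg/L region, against 50.3% (49.8 to 50.9%) outside such runs and 51.0% at the same strength. Here 7 of the 10 classes had the lower share in runs, with intervals apart in 1. A whole run can match only where the other list also forms one, so its share is not comparable with that of regions. Of the 119 runs of the 0.1 mg/L list 22 (18.5%) overlapped a run of the 0.5 mg/L list, and so did 22 of the 151 (14.6%) in the other direction.

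Over all regions of a list, clustered regions were weaker against their surroundings but not lower in pileup. At 0.1 mg/L the fold over local background had a median of 4.38 (95% order-statistic interval 4.30 to 4.45, n = 1086) in runs and 4.68 (4.66 to 4.71, n = 37457) outside, whereas the median summit pileup was 12 fragments in runs and 10 fragments outside. At 0.5 mg/L its median was 5.49 (5.37 to 5.58, n = 1170) in runs and 5.88 (5.86 to 5.93, n = 30083) outside, and the median summit pileup was 9 fragments in runs and 7 fragments outside. Over all regions, the order of fold and the order of pileup were thus opposite in both lists. The lower fold did not extend to regions of the 0.5 mg/L list alone, with a median of 5.03 (4.90 to 5.14) in runs and 4.98 (4.96 to 5.02) outside. Shared regions of that list had 6.22 in runs and 7.04 outside. At 0.1 mg/L the medians were 4.10 in runs and 4.31 outside for regions of that list alone, and 4.96 and 5.72 for shared regions.

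What differed most was the local background. At 0.1 mg/L its median was 1.97 fragments (1.91 to 2.02) in runs and 1.16 (1.16 to 1.17) outside, a ratio of 1.70. At 0.5 mg/L it was 0.742 fragments (0.719 to 0.764) in runs and 0.389 (0.389 to 0.397) outside, a ratio of 1.90. In the 0.5 mg/L list 459 clustered regions (39.2%, 36.4 to 42.1%) had a background above 5 times the genome-wide level, against 8.08% (7.77 to 8.39%) outside runs, and in the 0.1 mg/L list 72 did (6.63%, 5.22 to 8.28%), against 0.654% (0.575 to 0.741%). The fragments of a region's own neighbours count in this background, so it is not independent of the rule.

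Over all regions of a list, median width was lower in runs in both lists, and median rank was lower at 0.5 mg/L. Neither held for the regions of 1 list alone, which differed little in width. The median width in the 0.1 mg/L list was 306 bp (298 to 315 bp) in runs and 317 bp (316 to 319 bp) outside, and in the 0.5 mg/L list 218 bp (213 to 222 bp) in runs and 233 bp (231 to 234 bp) outside. The median percentile of −log10 q-value within the list was 49.7 both in runs and outside at 0.1 mg/L. At 0.5 mg/L it was 44.7 (42.5 to 46.3) in runs and 50.2 (49.6 to 50.8) outside. The strongest 10% of the list held 6.91% (5.47 to 8.58%) of the clustered 0.1 mg/L regions, against 9.87% of those outside runs, and 6.07% (4.77 to 7.59%) of the clustered 0.5 mg/L regions, against 10.1%. Clustered regions in both lists had a median width of 336 bp in the 0.1 mg/L list, against 367 bp for shared regions outside runs. In the 0.5 mg/L list these widths were 258 and 269 bp. Regions of the 0.1 mg/L list alone had a median width of 292 bp both in runs and outside. For the 0.5 mg/L list alone it was 203 bp (198 to 208 bp) in runs and 204 bp (203 to 206 bp) outside. The median percentile of regions of 1 list alone was 37.2 in runs and 33.6 outside at 0.1 mg/L. At 0.5 mg/L it was 34.5 and 33.8.

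Where a clustered region was called once in each list, its summit was placed as closely as elsewhere. The median distance between the paired summits was 59 bp (53 to 70 bp) in 455 clustered pairs and 56 bp (55 to 58 bp) in 14935 other pairs. A distance of at most 100 bp was found for 72.3% (67.9 to 76.4%) of the clustered pairs and for 71.8% (71.1 to 72.5%) of the others.

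The strongest region of each run was set beside the other regions of runs. Taking in each run the region with the highest percentile of −log10 q-value in its list, 259 of 577 (44.9%, 40.8 to 49.0%) were in both lists, with a median percentile of 73.8. Of the other 1216 regions of runs 200 (16.4%, 14.4 to 18.7%) were in both lists, with a median percentile of 33.2. A region in both lists was ranked by the higher of its percentiles, which by construction favours shared regions as the strongest. Choosing the strongest region also raises its percentile by construction, and sharing increased with strength in each list. The difference in sharing is therefore a description and cannot be read as a trait of the runs.

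Runs occurred on every chromosome, and the 19 chromosomes differed in how far they departed from uniform placement. The ratio of clustered regions to the expected number was highest on chromosome 4, with 125 clustered regions in 40 runs against 58.8 regions and 19.04 runs expected. This was a ratio of 2.13 for regions and 2.10 (1.501 to 2.86, Poisson interval over runs) for runs. It was lowest on chromosome 14, with 60 clustered regions in 19 runs against 67.1 and 21.6 expected (0.895 for regions, and 0.878 for runs with an interval of 0.529 to 1.37). The most runs, 46, were on chromosome 6 and the fewest, 14, on chromosome 17. On chromosomes 7, 14 and 17 fewer clustered regions were found than expected, and on the other 16 more. The Poisson interval over runs included the expected number on chromosomes 1, 2, 3, 5, 7, 12, 14, 15, 17 and 18.

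**Figure D4:**
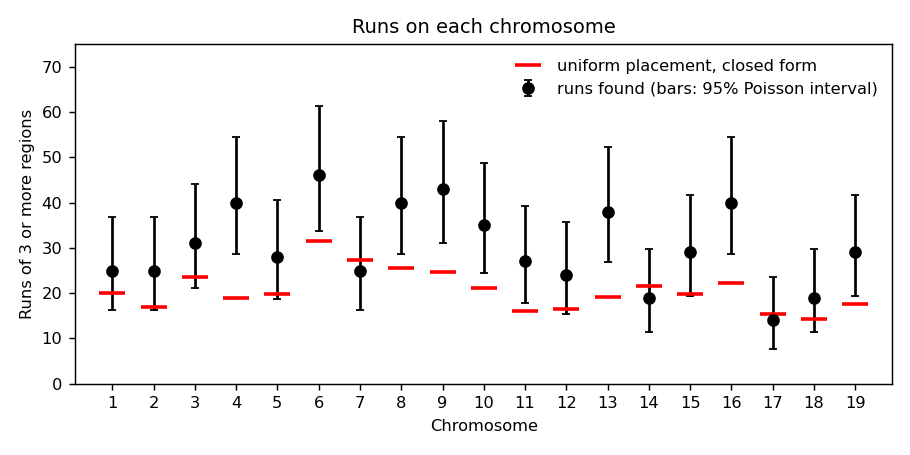
Runs of 3 or more regions on each chromosome (points, with 95% Poisson intervals that cover counting error only) and the number for uniform placement of the same regions (red lines). Chromosome 4 has 40 runs against 19.04 expected, and the points of chromosomes 7, 14 and 17 lie below their lines.

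Along the chromosomes, clustered regions were spread over the whole length, cut here into 10 equal parts. Their share of the union regions was highest in the last part (4.08%, 3.59 to 4.61%, 247 of 6058) and lowest in the third (2.24%, 1.85 to 2.68%, 115 of 5136). In the first part it was 3.45% (3.00 to 3.94%). The parts at the ends also held the most union regions, 6003 and 6058, against 5118 to 5499 in the others. The numbering of a chromosome from its start is arbitrary with respect to its arms, and the centromeres were not placed here.

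The 3 runs with the most regions held 5 each, and none of them was made of shared regions throughout. The first lay on chromosome 18 at 11481333 to 11489627 (8295 bp) and had 3 regions of the 0.1 mg/L list alone and 2 regions of the 0.5 mg/L list alone. Its strongest 0.5 mg/L region, at 11483325 to 11483560, had a fold of 7.35 and a summit pileup of 19 fragments over a background of 1.72. Its strongest 0.1 mg/L region, at 11487321 to 11487701, had a fold of 4.73 and a pileup of 18 fragments over a background of 3.02, and a gap of 3760 bp separated these regions. The first 4 regions thus came from the lists in turn, and nowhere did calls coincide.

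The run on chromosome 19 at 117504549 to 117513855 (9307 bp) had all of its 5 regions in the 0.1 mg/L list and 2 of them in the 0.5 mg/L list as well. The shared pair came first, 506 bp apart. In the first region the 0.1 mg/L call was 644 bp wide with a fold of 4.22 and the 0.5 mg/L call was 279 bp wide with a fold of 6.13. In the second the calls were 275 and 183 bp wide with folds of 6.48 and 5.57. Of the 3 regions at 0.1 mg/L alone the strongest by −log10 q-value, at 117512435 to 117512724, had a fold of 6.64 and a pileup of 15 fragments, and the weakest, at 117513585 to 117513855, had a fold of 3.40 and a pileup of 6 fragments.

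The run on chromosome 3 at 138537633 to 138548857 (11225 bp) had 2 regions of the 0.1 mg/L list alone and 3 regions of the 0.5 mg/L list alone. It held a mixed pair only 88 bp apart, with a 0.1 mg/L call of 323 bp (fold 3.59) ending at 138541421 and a 0.5 mg/L call of 160 bp (fold 4.12) beginning at 138541510. Its widest gap was 4776 bp. No region of this run reached a fold of 7 in either list, and the highest was 6.69, in the first 0.5 mg/L region.

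The shortest runs of 4 came next by the rule for named runs. On chromosome 6, 4 regions lay within 4343 bp at 20322331 to 20326673, 1 of the 0.1 mg/L list alone (fold 3.48) followed by 3 of the 0.5 mg/L list alone (folds 5.78, 5.72 and 4.09). On chromosome 17, 4 regions lay within 4414 bp at 114158360 to 114162773. Of these, 2 were in both lists, with folds of 4.67 and 3.56 at 0.1 mg/L and 7.43 and 5.24 at 0.5 mg/L. Both runs, chosen for their short span, held 4 union regions in less than the median span of runs of 3.

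Among the 19 runs in which every region was in both lists, 3 had 4 regions. On chromosome 4, at 101195472 to 101204090, the folds in order were 3.46, 4.11, 7.16 and 3.11 at 0.1 mg/L and 5.35, 7.43, 10.1 and 4.94 at 0.5 mg/L. On chromosome 9, at 128557556 to 128567056, they were 3.76, 4.51, 3.16 and 4.69 at 0.1 mg/L and 7.46, 8.41, 4.73 and 6.84 at 0.5 mg/L. On chromosome 18, at 38116432 to 38126379, they were 5.07, 3.27, 4.41 and 4.10 at 0.1 mg/L and 4.68, 5.61, 6.01 and 4.61 at 0.5 mg/L. In the first run the third region was the strongest in both lists and the fourth the weakest. In the run on chromosome 9 the third was the weakest in both lists. Folds of the lists are not comparable in size, since each was taken over the background of its own library.

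Of runs made wholly of regions absent from the other list, the longest also had 4 regions. On chromosome 12, at 154809226 to 154817339, the 0.1 mg/L list had regions with folds of 5.12, 5.35, 6.70 and 3.97 and pileups of 9, 11, 13 and 7 fragments, and the 0.5 mg/L list had none there. On chromosome 14, at 10545300 to 10551288, the 0.5 mg/L list had regions with folds of 6.33, 6.39, 4.36 and 4.16 and pileups of 14, 14, 10 and 7 fragments, and the 0.1 mg/L list had none. Absence from a list is no measure of closed chromatin, since the background of the libraries differed.

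**Figure D5:**
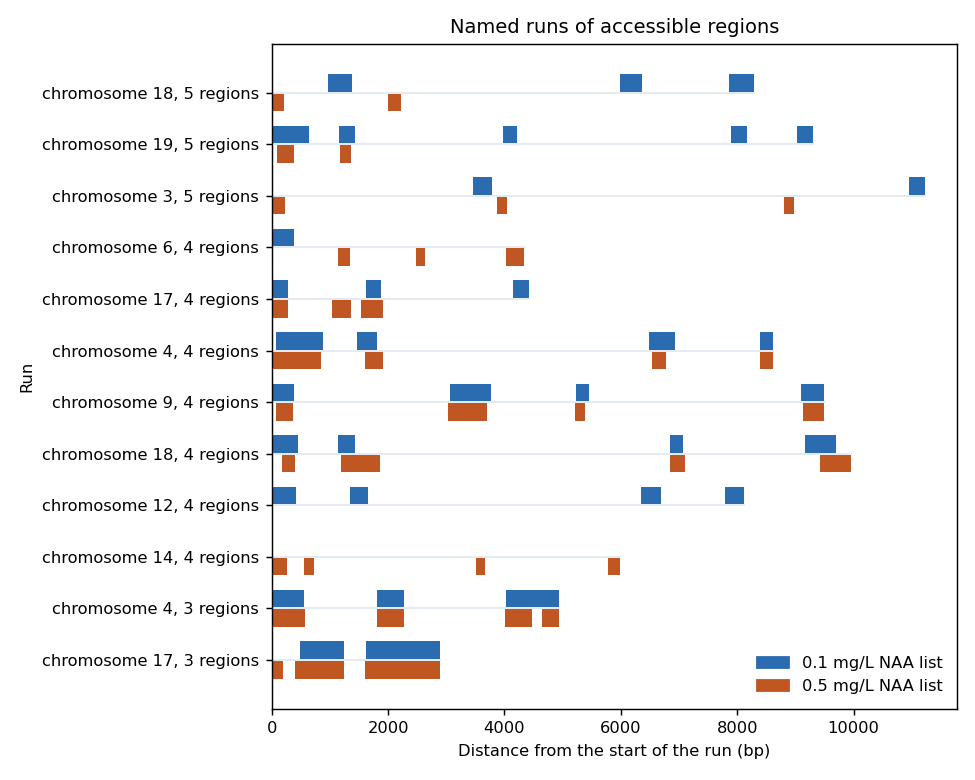
The named runs, each drawn from its own first base (horizontal axis, bp), with regions of the 0.1 mg/L list (blue, upper) and the 0.5 mg/L list (orange, lower) to scale. In the runs of 4 shared regions on chromosomes 4, 9 and 18 the colours lie over each other, and in the runs of 5 on chromosomes 18 and 3 they never do.

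The strongest clustered regions stood on a very high background. The run on chromosome 4 at 168206382 to 168211313 (4932 bp) held the strongest clustered region of both lists, at 168208194 to 168208652 in the 0.1 mg/L list (−log10 q-value 369, pileup 820 fragments) and at 168208192 to 168208658 in the 0.5 mg/L list (−log10 q-value 320, pileup 563 fragments). Its background was about 123 fragments at 0.1 mg/L and 61.6 at 0.5 mg/L, against 0.747 and 0.172 genome-wide, so the folds were only 6.61 and 9.01. Its regions were separated by gaps of 1242 and 1732 bp. Each of the 3 was in both lists, and the third was called in 2 pieces at 0.5 mg/L. The run on chromosome 17 at 62416185 to 62419074 held the region with the second highest value of the 0.1 mg/L list (−log10 q-value 341, pileup 499 fragments), over a background of 40.8. Its regions filled 80.7% of its 2890 bp. Only 5 clustered regions at 0.1 mg/L and 10 clustered regions at 0.5 mg/L had a background above 20 times the genome-wide level. This was 0.460% of the clustered 0.1 mg/L regions, against 0.0427% outside runs, and 0.855% of the clustered 0.5 mg/L regions, against 0.0898% outside runs. Whether they hold sequence present in many copies was not tested.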

How the data were processed

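ATAC-seq was made from 1 library per NAA concentration. The authors trimmed reads (Trimmomatic 0.39 in the submitters' notes), aligned them to the N. benthamiana genome with BWA, and called regions in each library separately with MACS2 2.2.7.1 at a q-value below 0.05. A control library, duplicates, organelle reads and the Tn5 offset are not given in the sources used here. The labels name both fixation with sonication and Tn5 treatment. The deposited score is 10 times the −log10 q-value, cut to a whole number. The deposited fold is a ratio of summit pileup to local background, each with a pseudocount of 1, and the deposited −log10 p-value is the Poisson tail there. Region positions are the other deposited values.

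Pileup and background were solved from fold and p-value (tolerance 3e-04 on −log10 p, 100% of regions solved, over 1 solution for at most 0.0346%). The lists held 38543 and 31253 regions on the chromosomes at 0.1 and 0.5 mg/L. Read totals are not in the lists, and depth enters through the background. Uniform placement used exponential gaps with each chromosome ending at its last region. Medians carry order-statistic intervals. Run building, merging and the solving of pileups were tested on simulated data. The members and lists were chosen with earlier results of these data known. The named runs are the 5 with the most regions (ties by shorter span), the 3 longest with every region in both lists, the longest of each list alone, and those with the 2 strongest clustered regions of each list. Chromosomes are named at the extremes of the ratio to expectation. Alternatives were other gap limits, run lengths, q-values, widths, merging, numbers, distances, single lists, overlap and density windows. Python 3.11.15, numpy 2.4.6, pandas 2.3.3 and scipy 1.17.1 were used. The gene table at hand is of another species and assembly and was not used, so no sequence is shown.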

Additional observations from a re-analysis of the deposited data

Results flagged for a closer look

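The comparisons used the chromosomes only, and clustered regions also occurred outside them. By the same rule 60 of the 1211 union regions on unplaced scaffolds (4.95%) lay in 19 runs on 19 scaffolds, the longest with 4 regions, and 25 of the 60 (41.7%) were in both lists. The share in both lists among all scaffold regions was not obtained, so the 41.7% cannot be read as a trait of the runs.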

How the results depend on the processing

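Under 13 alternatives 75 values were obtained, and the 10 on regions of the 0.5 mg/L list alone were added after seeing the data. No paired analysis was possible because there was only 1 library at each concentration. The cause of a change was not tested. The ratio to uniform placement was 1.48 and turned below 1 for runs of at least 5 regions (0.918, resting on 3 runs), with regions under 500 bp apart merged (0.975) and in the 0.1 mg/L list alone (0.799).

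A gap limit of 2500 bp left 704 clustered regions (1.30%) in 233 runs, a ratio of 2.14 and 20.3% in both lists. A limit of 10000 bp gave 7721 (14.3%) in 2307 runs, a ratio of 1.85 and 30.0% in both lists against 28.6% of the others, which turned this order. It was also turned in the 0.1 mg/L list alone, where 51.9% of regions in runs and 40.3% of the others were in both lists. Runs of at least 5 held 15 regions (0.0277%), 13.3% in both lists. Distance between centres gave 2.72% clustered, a ratio of 1.23 and 22.1% in both lists, and density windows of 10 Mb a ratio of 1.29.

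With q-values below 0.001, 702 regions (1.91%) were clustered in 229 runs, a ratio of 1.76, with 30.5% of them and 35.5% of the others in both lists and 31.3% of the others in the 0.5 mg/L list alone. With q-values below 1e-05, 144 (0.680%) were clustered in 47 runs, a ratio of 1.77, with 36.8 and 37.5% in both lists and 44.4 and 39.1% in the 0.5 mg/L list alone. Merging left 1092 (2.08%) in 351 runs, with 29.2 and 30.7% in both lists and 27.5% of the others in the 0.5 mg/L list alone. The common minimum width left 899 (1.95%) in 292 runs, a ratio of 1.17, with 25.7% of the others in both lists and 25.4 and 16.2% in the 0.5 mg/L list alone. Equal numbers of the strongest regions gave 3.05% clustered, a ratio of 1.73, with 31.8% of the others in both lists and 42.8 and 33.7% in the 0.5 mg/L list alone. The 0.1 mg/L list alone gave 366 (0.950%) in 119 runs, and the 0.5 mg/L list alone 464 (1.48%) in 151 runs, a ratio of 1.85. Overlap of at least 50% of both regions left 17.9 and 20.3% in both lists. The other 12 values were within 1.5 times a count or inside the interval of a share. The share in the 0.5 mg/L list alone was obtained only for the stricter q-values, merging, the common minimum width and equal numbers. It was not obtained for other gap limits, run lengths, centre distances or the 50% overlap. In each setting run for it, it was higher among the clustered than among the other regions. At q-values below 1e-05 it rested on only 144 clustered regions.

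Peak lists hold no reads, so accessibility between called regions of a run could not be measured, and read depth is not given in the lists.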

Other observations

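Most runs were alone in their 1 Mb window, and a few windows held several. Of 2948 windows of 1 Mb, 2448 had no run, 433 had 1 run, 55 had 2 runs and 12 had 3 or more, where a Poisson distribution with the same mean of 0.196 runs per window gives 3.18 windows with 3 or more. The densest window was on chromosome 6 at 19000001 to 20000000, with 4 runs and 12 clustered of 36 union regions, and the next window on that chromosome held 3 runs with 10 clustered of 29. A window with a run had a median of 23 union regions and one without a run but with a region had 17, so the runs lay in windows of more regions, which the rule favours by construction. The window on chromosome 4 at 168000001 to 169000000, which holds the strongest clustered regions, had 3 runs with 9 clustered of 32 union regions.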
